A study of Mus musculus with 4 samples.

Results

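The 10 genes followed here mark T cells and intraepithelial lymphocytes in mouse colon: Cd3d, Cd3e, Cd3g, Cd2, Cd5, Cd6, Cd8a, Gzma, Gzmb and Itgae. Members were chosen as all non-control probes that the array files name for one of these 10 genes, which gave 15 probes and 24 spots among 41174 probes and 43379 gene spots for 27339 gene names. In the Rspo3 experiment, each of 2 arrays set distal colon RNA of a Myh11CreErt2/Rspo3 fl/fl mouse (Rspo3 KO) against that of a control mouse. The controls, labelled Rspo3++, were Myh11CreErt2/Rspo3+/+, and the paper describes its controls as littermates. No label says that the 2 mice on an array shared a litter. In all, 2 KO and 2 control mice were compared as 2 pairs with the dyes exchanged between the pairs. In the Axin2 experiment, tdTomato-positive (Axin2+) and tdTomato-negative (Axin2-) epithelial cells of Axin2CreErt2/Rosa26-tdTomato mice, each pooled from 3 mice, were compared on 2 arrays that repeat the same RNA with the dyes exchanged.

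All mice were C57BL/6 males of 6 to 8 weeks. Tamoxifen was given at 4 mg per 25 g body weight, once or on up to 3 days in a row. Colons of the Rspo3 experiment were taken 2 weeks after depletion, and cells of the Axin2 experiment were sorted 24 h after tamoxifen on the epithelial antigen ESA. Myh11CreErt2 recombines in smooth muscle cells and myofibroblasts and was carried by the controls too, and T cells are not among the cells this Cre targets. Rspo3 is a secreted amplifier of Wnt signalling. In the Rspo3 arrays each mouse was seen in 1 dye only, so that mouse pair and dye cannot be told apart.

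T cells recognise antigen through a receptor whose signal passes through the CD3 chains. In the gut many of them sit between epithelial cells as intraepithelial lymphocytes, most of which carry CD8, hold granzymes in granules and are anchored by the integrin CD103, which binds E-cadherin on the neighbouring epithelial cell. CD2, CD5 and CD6 are surface receptors that tune the response of T cells, and CD5 and CD6 restrain it.

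Each value below is a 60-base probe's signal. The probes that carried the main values, and that lie in coding sequence as far as an open frame and their position show, were these, written 5′ to 3′ in the sense of the mRNA. The first is shown because it covers the tail of the Cd3d chain that is phosphorylated on receptor triggering: capitals mark 2 stretches of a tyrosine codon, any 2 codons and a leucine codon, a pair that 36 of 41174 probes (0.0874%) hold on this strand. The others are shown because Cd3g belongs to the same complex, because 1 of several probes decided the values of Cd8a, Itgae and Cd6, and because Gzma differed most between the sorted pools. The Cd6 probe shown gave the value in the sorted cells only, and the other Cd6 probe, not shown, gave the value in the colon.
Cd3d: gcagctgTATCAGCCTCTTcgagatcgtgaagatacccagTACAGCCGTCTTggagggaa
Cd3g: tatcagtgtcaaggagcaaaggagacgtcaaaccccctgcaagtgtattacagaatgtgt
Cd8a: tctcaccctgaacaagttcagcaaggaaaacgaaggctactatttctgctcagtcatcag
Itgae: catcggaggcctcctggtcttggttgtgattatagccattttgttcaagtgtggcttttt
Cd6: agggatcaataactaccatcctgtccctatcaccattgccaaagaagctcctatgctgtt
Gzma: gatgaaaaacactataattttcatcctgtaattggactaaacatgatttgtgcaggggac

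On mm9, as the array files place them, the Cd3d probe lies at chr9:44794171-44794402 (plus strand) and the Cd3g probe at chr9:44781716-44782300 (minus strand). The Cd3d, Cd3g, Itgae (chr11:72959105-72960563, plus strand) and Cd6 (chr19:10867422-10868678, minus strand) probes span 232, 585, 1459 and 1257 genomic bases, more than their 60 bases, so each crosses at least 1 intron. The Cd8a probe (chr6:71323885-71323944, plus strand) and the Gzma probe (chr13:113885986-113886045, minus strand) each match an unbroken stretch. Of the members' other probes, that of Cd2 lies at chr3:101083802-101086981, that of Cd5 at chr19:10792701-10792760, that of Gzmb at chr14:56877916-56877975 and the other Cd6 probe at chr19:10863891-10863950, all on the minus strand.

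The signal of most members was low. A spot counted as detected where the extraction software called it well above background, and a gene was measured in an experiment where a probe was detected in at least 1 channel on both arrays. By this rule 7 of the 10 members were measured in the colon (Cd3d, Cd3g, Cd2, Cd5, Cd6, Gzmb and Itgae) and 7 in the sorted cells (Cd3d, Cd3e, Cd6, Cd8a, Gzma, Gzmb and Itgae). Of all gene spots, 53.1% to 60.3% were well above background in a channel. The 2 Rspo3 probes were detected in 1 pair only (1 probe, with log2 ratios of 0.10 and 0.17) or nowhere, so the arrays gave no check of the deletion.

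The first comparison asked whether colon that had lost stromal Rspo3 held a different level of T cell RNA. No member passed the test: limma with Benjamini-Hochberg adjustment over 15383 genes called 0 of 7 measured members, against 0.111% of all genes called lower and 0.13% called higher, and 1 of 7 members, Cd6, had an unadjusted p below 0.05, against 4.64% of all genes. The ratios were below 0 in 7 of 7 members in the first pair and in 4 of 7 in the second, against 50.3% and 53.3% of all genes. Cd2, below 0 in both pairs, was measured only through its detection in the controls. The median log2 ratio of the members was -0.56 in the first pair, -0.03 in the second and -0.29 for the mean of both, against -0.01 for all genes. Fewer T cells and less RNA per T cell cannot be told apart in whole tissue.

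**Figure D1:**
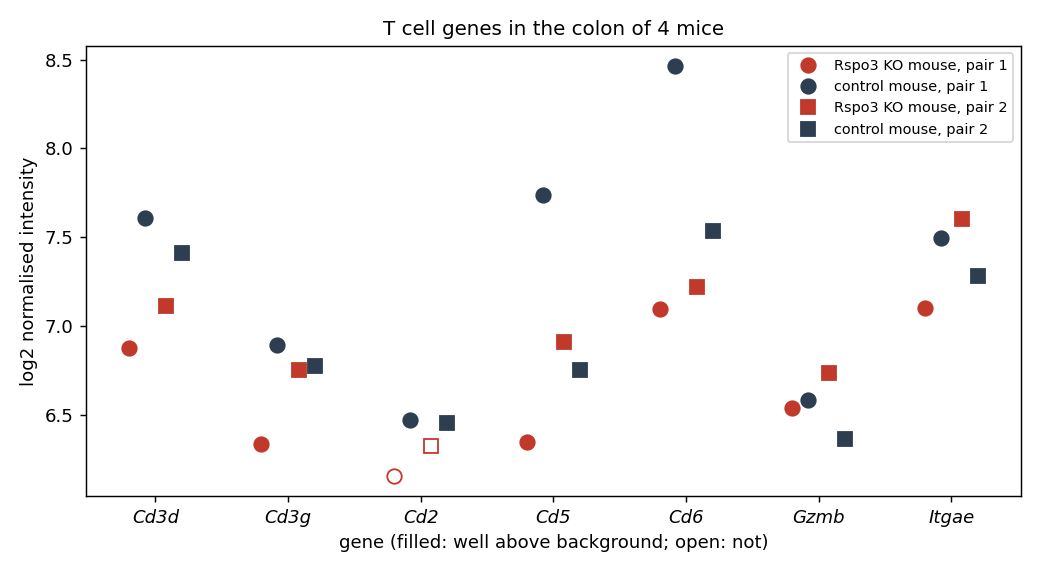
Level of each measured member in the 4 mice of the Rspo3 experiment, as log2 normalised intensity on the vertical axis, with filled symbols where the probe was well above background and open symbols where it was not. Cd6 and Cd5 in the control mouse of pair 1, at 8.46 and 7.74, stand furthest above the other mice.

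Among the chains that carry the receptor signal, Cd3d had log2 normalised intensities of 6.87 and 7.11 in the KO mice and 7.61 and 7.41 in the controls. Both KO mice lay below both controls, and the log2 ratio was -0.73 and -0.30 in the pairs (mean -0.52 ± 0.31, SD, n = 2, limma adjusted p = 0.9997). Cd3g had levels of 6.34 and 6.75 in KO mice and 6.90 and 6.78 in controls. Its groups were apart by a narrow margin, with ratios of -0.56 and -0.03 and a mean of -0.29 ± 0.38 (SD, n = 2). Cd3e was detected in 1 of 4 mice only, the control of pair 2, and the ratios of its brighter probe were 0.14 and -0.10.

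Among the surface receptors, Cd6 had the lowest mean ratio, with levels of 7.10 and 7.22 in the KO mice and 8.46 and 7.53 in the controls. Its log2 ratios of -1.36 and -0.31 (mean -0.84 ± 0.74, SD, n = 2) gave an unadjusted p of 0.0227 and an adjusted p of 0.813 in limma. Cd6 was the 1 member past 1.5-fold in the mean with the same direction in both pairs, a rule that 2.46% of all genes met downwards and 1.85% upwards. Its second probe, at chr19:10867422-10868678, was detected in none of the 4 mice.

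Cd5 had levels of 6.35 and 6.91 in KO mice and 7.74 and 6.75 in controls. The control of pair 1 alone was high and the groups overlapped, so that the ratios were -1.39 and 0.16 (mean -0.62 ± 1.098, SD, n = 2). Cd2 had levels of 6.16 and 6.32 in KO mice and 6.47 and 6.46 in controls, and was well above background in both controls and in neither KO mouse. Its ratios were -0.31 and -0.13 (mean -0.22, adjusted p = 0.9997 in limma), and the mean was -0.08 with all spots in the background fit.

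The genes of killing and anchoring had ratios of opposite sign in the 2 pairs. Gzmb, a granule protease, had levels of 6.54 and 6.74 in KO mice and 6.58 and 6.36 in controls, with ratios of -0.04 and 0.37. Itgae, which encodes CD103, had levels of 7.10 and 7.60 in KO mice and 7.49 and 7.28 in controls, with ratios of -0.39 and 0.32. In both genes the groups overlapped. Gzma was detected in no mouse, and Cd8a was detected in 1 of 4, by 2 of its 3 probes. On the Cd8a probe printed in 10 spots, the number of spots well above background was 0 and 0 in the KO mice and 1 and 9 in the controls, and its ratios were -0.22 and -0.17. The other 2 Cd8a probes had ratios of -0.14 and -0.31 and of -0.19 and 0.06. The second probes of Itgae and Cd3e, detected in no mouse, had ratios of -0.00 and 0.06 and of 0.02 and -0.03.

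Both KO mice lay below both control mice in 4 of 7 members, against 16.3% of all genes. The ratio was below 0 in both pairs in 4 of 7 members, against 23.9% of all genes, and above 0 in both pairs in 0 of 7, against 20.3%. Cd2 is in both counts of 4 and was measured only through its detection in the controls, the group where it was higher. The difference between the 2 pairs had a median of 0.54 over the members and 0.34 over all genes on the log2 scale, so the spread between the pairs exceeded the members' median mean ratio of -0.29. Over all genes the ratios of the pairs correlated at r = 0.03.

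**Figure D2:**
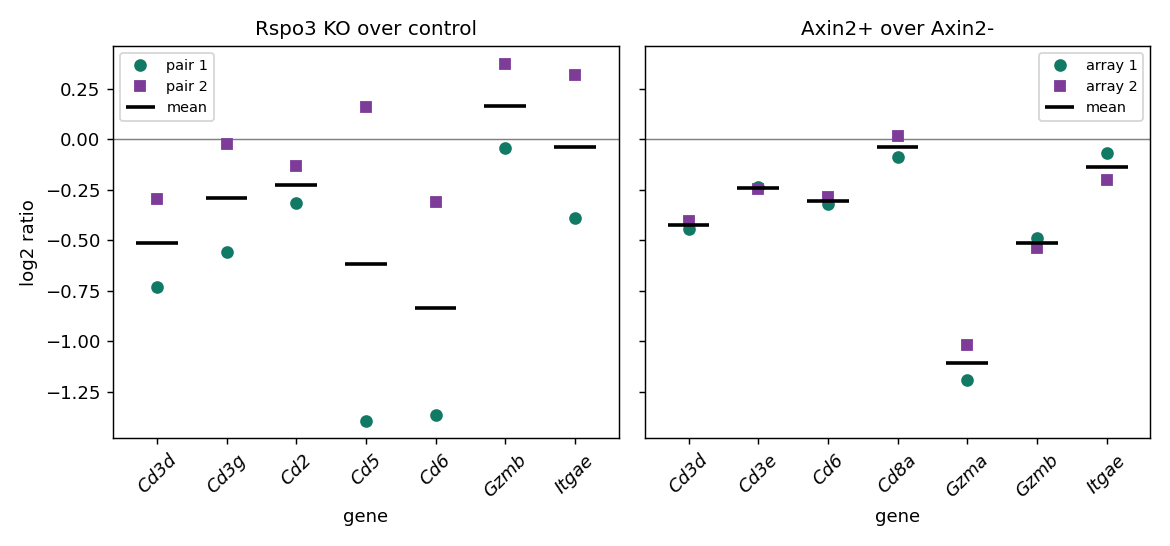
Log2 ratio of each measured member in each pair of mice (left, Rspo3 KO over control) and on each array of the pools (right, Axin2+ over Axin2-), with black bars for the mean of the 2 values. On the left the circles of pair 1 lie below the squares of pair 2 in all 7 genes, and on the right the array values of each gene lie within 0.174 of each other.

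The background fit mattered for these dim genes. The first pair's array had 66 spots with a non-uniform background, which were kept out of the fit. With them in it, the members' median was -0.03 rather than -0.29, Cd5 moved from -0.62 to 0.01, and no member was past 1.5-fold. With the offset added to every signal lowered to 16 and nothing else changed, the members' median was -0.44 and 2 members were past 1.5-fold alike. With the log ratio of the extraction software, which differs in background correction and dye normalisation too, the median was -0.92 and 4 members were past 1.5-fold alike.

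Among 18 other T cell genes, 10 were measured and none was called by limma, while 4 had an unadjusted p below 0.05, against the 4.64% of all genes given above. Their ratios were lower in both pairs in 6 of 10, against 23.9% of all genes, with a median of -0.46 and -0.11 in the pairs. Cd8b1, the beta chain of CD8, had ratios of -1.90 and -0.91 (mean -1.41, SE 0.29, adjusted p = 0.215 in limma). Lck, the kinase that phosphorylates the CD3 chains, had ratios of -0.95 and -0.47, and Tcf7, a transcription factor of naive and memory T cells, had ratios of -0.40 and -0.77. These 3 were past 1.5-fold alike in both pairs. Tcf7 was also well above background in the sorted Axin2+ epithelial cells on both arrays, with ratios of 0.21 and 0.29 over Axin2- cells. Lck was well above background there too. Which cells gave these colon ratios was not tested.

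Of 14 helper and regulatory T cell genes, 7 were measured, none was called, and 5 were lower in both pairs with a median mean ratio of -0.38. Ccr6, a chemokine receptor of cells in gut lymphoid tissue, had ratios of -0.85 and -0.91, and Gata3, a factor of type 2 helper cells, had ratios of -1.85 and -0.06. Of 26 other cytotoxic and intraepithelial lymphocyte genes on the array, 10 were measured, none was called or past 1.5-fold alike, and 3 were lower in both pairs. For both lists, the share of all genes lower in both pairs was 23.9%. Of 12 T cell receptor genes named on the array, 2 were measured, Trgv2 and Trav3n-3, and neither was called.

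The epithelial side of the contact gave 1 called gene of 9 measured, H2-T3. It was known to be called from earlier results of these data when the list was written, so this count is no independent support. H2-T3, which encodes the thymus leukaemia antigen that binds CD8 alpha homodimers, rose: its ratios were 2.63 and 2.74 (mean 2.69, adjusted p = 0.00799 in limma). It was well above background in both KO mice and in neither control, a rise of at least 6.10-fold. Cdh1, E-cadherin and the ligand of CD103, had ratios of 0.24 and -0.36, and Ccl25, which recruits lymphocytes to the gut, had ratios of -0.17 and -1.04.

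Lists of other leukocytes also had ratios below 0. Of 15 B cell genes 12 were measured and 10 were lower in both pairs, against 23.9% of all genes. Limma called 2, Ms4a1 (mean log2 ratio -2.51, adjusted p = 0.0127) and Ighm (-1.93, adjusted p = 0.0249). Both were known to be called from earlier results of these data when the list was written. The summed normalised intensity of the B cell list was 2620 to 2638 in the KO mice and 5060 to 8318 in the controls. Of the gut lymphoid tissue genes, 6 of 9 measured were lower and 2 higher in both pairs, against 23.9% and 20.3% of all genes. Ccl19, a chemokine that draws T cells into lymphoid tissue, was called (-2.20, adjusted p = 0.0324). In the same list Glycam1, a ligand for lymphocyte homing, had a mean ratio of -2.40 (at least 5.22-fold lower, adjusted p = 0.0905) and Ltb, a cytokine of lymphoid tissue, one of -1.74 (adjusted p = 0.0991). Among the lower genes, Glycam1 and Cr2 were detected in the controls only, and Cr2 is in the B cell list too. Ccl20 went the other way, with ratios of 1.25 and 0.45, and was past 1.5-fold alike.

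The sum of the 7 members themselves was 718 and 897 in the KO mice and 1245 and 899 in the controls, so the control of pair 1 alone was high. The pan-leukocyte list, with 12 of 12 measured and 6 lower in both pairs, summed to 5937 to 5949 in KO mice and 6519 to 8808 in controls. In the macrophage list 8 of 12 genes were higher and 1 lower in both pairs. Its sums overlapped, at 11926 to 14608 in KO mice and 10514 to 12534 in controls. Of all genes, 23.9% were lower and 20.3% higher in both pairs, for each list of this paragraph. Of 6 natural killer cell genes 2 were measured, 1 lower and 1 higher in both pairs, and of 9 stroma and smooth muscle genes measured 4 were higher in both pairs and none was called. The part of lymphoid tissue in the members' ratios was not tested. Among the epithelial genes 7 of 12 were measured, since 5 had no probe with unflagged spots on both arrays, and Cdx2, an intestinal transcription factor, was called higher (2.12, adjusted p = 0.0198). The summed epithelial level was 274562 to 280504 in KO mice and 263519 to 274495 in controls.

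**Figure D3:**
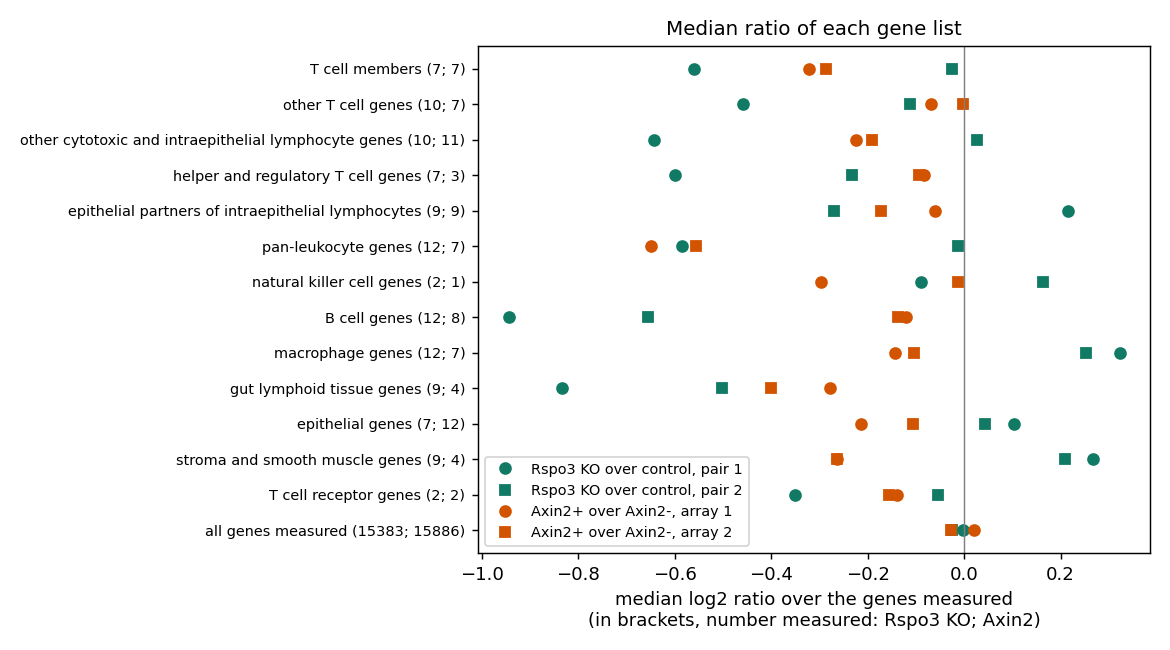
Median log2 ratio over the measured genes of each list, in the 2 pairs of the Rspo3 experiment and on the 2 arrays of the Axin2 experiment, with the number of genes measured in brackets. The B cell and gut lymphoid tissue lists lie furthest below 0 in both pairs of the Rspo3 experiment, at -0.94 and -0.65 and at -0.83 and -0.50.

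The 5 genes in no list whose levels over the 4 mice lay nearest to the members' median pattern (each gene centred on its mean, root mean square distance) were Hmbox1, Tbcd, Matn2, Sart1 and Rxrb, at distances of 0.0550 to 0.0573. The members' median centred level was -0.35 and -0.03 in the KO mice and 0.21 and -0.04 in the controls. With 4 mice this likeness is a description.

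The second comparison asked how the members differed between Wnt-responsive and other epithelial cells. It rests on 1 pool of each kind measured on 2 arrays, so there is no replicate and no test. The members were lower in Axin2+ cells on both arrays in 6 of 7, against 41.7% of all 15886 genes measured. Their median log2 ratio was -0.32 and -0.29 on the arrays, against 0.02 and -0.03 for all genes. Gzma counted as measured only through Axin2- cells, where it was higher, and Cd3d and Gzmb did so on the second array. The median difference between the 2 arrays was 0.05 for the members and 0.12 for all genes, which is technical spread alone.

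**Figure D4:**
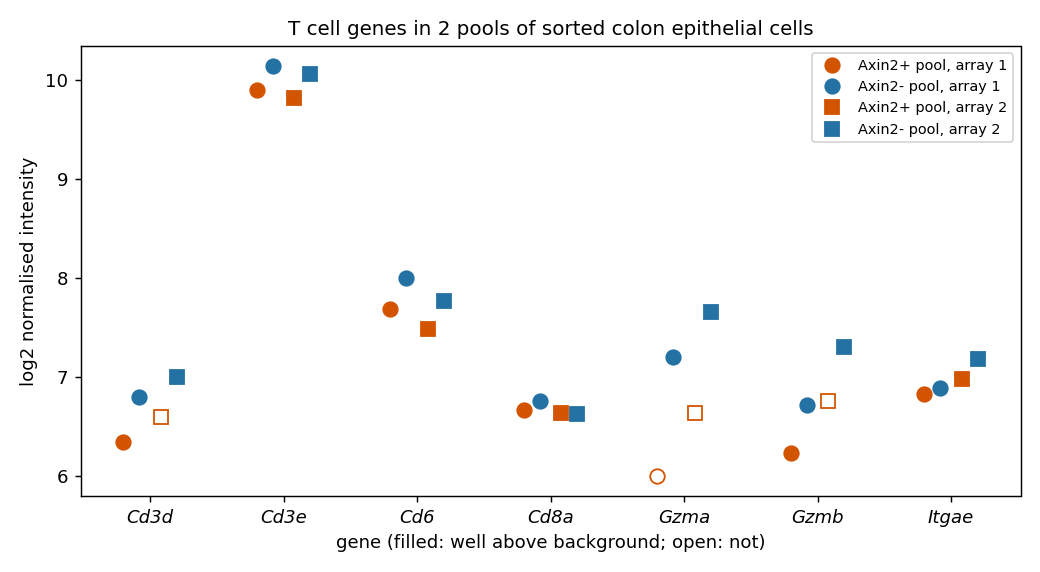
Level of each measured member in the Axin2+ and Axin2- pools on both arrays, as log2 normalised intensity on the vertical axis, with open symbols where the probe was not well above background. Cd3e lies at 9.82 to 10.14 in both pools, and Gzma separates the pools most.

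Gzma, the other granule protease, differed most. Its level was 6.01 and 6.64 in Axin2+ cells, where it was not well above background on either array, and 7.20 and 7.66 in Axin2- cells, where it was. This gives a level at least 2.14-fold lower in Axin2+ cells. It was the 1 member past 1.5-fold alike on both arrays, which 6.92% of all genes were downwards and 7.86% upwards. Gzmb had levels of 6.23 and 6.76 in Axin2+ cells and 6.72 and 7.30 in Axin2- cells, with ratios of -0.49 and -0.54. By the extraction software's log ratio the Gzma values were -3.91 and -3.83 on the log2 scale, the members' median was -0.61 and 4 of them were past 1.5-fold alike.

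Cd3d had levels of 6.35 and 6.60 in Axin2+ cells and 6.80 and 7.01 in Axin2- cells, with ratios of -0.45 and -0.41. Itgae had levels of 6.83 and 6.98 in Axin2+ cells and 6.89 and 7.19 in Axin2- cells, with ratios of -0.07 and -0.20. Cd2, Cd3g and Cd5 were well above background in Axin2- cells on the second array only, Cd5 also in Axin2+ cells there, and none of the 3 in either pool on the first.

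For 3 genes the probes disagreed, and whether the single bright probe of Cd3e or of Cd6 detects another transcript was not tested. Cd3e was bright in both pools, at 9.90 and 9.82 in Axin2+ cells and 10.14 and 10.06 in Axin2- cells (ratios -0.24 and -0.25), on a probe at chr9:44807254-44807313 that had 6.39 to 6.53 in the 4 colons, while its other probe was not well above background on any array. Cd6 was measured in the sorted cells by the probe shown above, at 7.48 to 8.01 (ratios -0.32 and -0.29), which had been detected in no colon, and its other probe had ratios of -0.02 and -0.16. Cd8a was measured by the probe shown above, with ratios of -0.09 and 0.02, while the probe at chr6:71327330-71327389 was well above background in Axin2- cells only, with ratios of -0.47 and -0.34 and a level at least 1.23-fold lower in Axin2+ cells. The Cd8a probe with 10 spots had ratios of -0.17 and -0.05, and the second probe of Itgae, not well above background in either pool, had ratios of 0.09 and -0.14. The members' median over the mean ratios, -0.30, is the value of this Cd6 probe, and without Cd3e and Cd6 it was -0.43. The 2 experiments were hybridised on different slides with different RNA, so slide and tissue cannot be told apart in these levels.

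Other genes of cytotoxic lymphocytes also had ratios below 0 on these arrays. Of 11 other cytotoxic and intraepithelial lymphocyte genes measured, 8 were lower in Axin2+ cells on both arrays, against 41.7% of all genes. Of these, Itgb7 and Xcl1 were detected in Axin2- cells only. In all, 3 were past 1.5-fold alike, against 6.92% of all genes downwards. These were Ccl5, a chemokine of cytotoxic cells (mean -1.73), Nkg7, a granule membrane protein (-0.72), and Cd7, a surface protein of T cells and natural killer cells (-0.66). Of 7 other T cell genes measured, 3 were lower and 2 higher on both arrays and none was past 1.5-fold alike. The 3 lower genes were detected in Axin2- cells only.

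The pools were sorted on ESA, and their epithelial identity was clear in the data, with 12 of 12 epithelial genes detected in each pool on each array. Pan-leukocyte genes were also detected, 5 to 6 of 12 in Axin2+ and 7 of 12 in Axin2- cells. All 7 measured were lower in Axin2+ cells on both arrays (median -0.57), against 41.7% of all genes. Among them were Ptprc, the common leukocyte antigen CD45 (-0.57), Cd52 (-1.25), Rac2 (-1.06) and Coro1a (-0.75). Arhgdib was detected in Axin2- cells only, and Ptprc and Coro1a were detected in Axin2+ cells on 1 array only. The summed normalised intensity of the measured pan-leukocyte genes was 778 to 906 in Axin2+ cells and 1290 to 1480 in Axin2- cells. That of the 7 members was 1597 to 1612 and 1973 to 2020, of which the 1 bright Cd3e probe made up the larger part, and without Cd3e it was 642 to 711 and 849 to 951. The part of leukocytes carried into the sort was not tested.

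Of the 9 epithelial partners measured, Btnl1, a butyrophilin-like protein that shapes gamma-delta intraepithelial lymphocytes, had ratios of -0.99 and -0.90, and Cd1d1, which presents lipid to natural killer T cells, had ratios of 0.93 and 1.33. Of these 9 genes, 6 were lower and 1 was higher on both arrays, with a median mean ratio of -0.12. The share of all genes lower on both arrays was 41.7%, for this list and those that follow. Among lists of other cells, 8 of 12 epithelial genes were lower on both arrays (median -0.14) and 4 were past 1.5-fold alike, with Krt20, a keratin of mature colonocytes, at -2.89. Of 7 macrophage genes 4 were lower and 2 higher on both arrays (median -0.12), and the 1 past 1.5-fold alike was Lyz2, a lysozyme gene, at -1.60. Of 8 B cell genes 6 were lower on both arrays (median -0.09), and the 1 past 1.5-fold alike was Spib, at -0.95. Of 4 gut lymphoid tissue genes 3 were lower on both arrays (median -0.32), and the 1 past 1.5-fold alike was Ccl20, at -0.89.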

How the data were processed

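RNA was labelled with Cy3 or Cy5 and hybridised to dual-colour Agilent arrays, 2 for each experiment. The deposited files of the authors hold spot intensity per dye (mean signal, median local background), the log10 ratio of Cy5 over Cy3 after the software's own correction, and an error score for that ratio, all from Agilent Feature Extraction 11.5.1.1. The deposited table of values holds the same log10 ratios and was used as an alternative only.

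The members and gene lists were chosen with earlier results of these data known, among them that H2-T3, Ms4a1 and Ighm were called. Ratios were turned to KO over control and Axin2+ over Axin2-. Background was corrected with limma 3.58.1 in R 4.3.3 by normexp with an offset of 50, which shrinks the ratios of dim spots, and each array was normalised by loess. Spots flagged as outliers, 124 to 510 per array, were left out, and those with non-uniform background were kept out of the fit, a choice made after seeing the data. A probe with several spots was well above background where at least 1 in 2 of its spots was, also chosen after seeing the data. The brightest passing probe gave the gene's value; levels per channel were scaled over all arrays (Aquantile). Names came from RefSeq accessions for 27761 probes, symbols for 5531, synonyms for 460 and the file for 7422.

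The Rspo3 ratios were tested against 0 with limma's lmFit and eBayes, Benjamini-Hochberg adjusted over all genes measured at 0.05, with 1 residual and 6.76 prior degrees of freedom; the fit was tested on simulated data. A fold bound sets the bright group's mean level against the higher of the dim probe's own level and the lowest well-above-background level per array. Nothing in the labels says how far the 2 pairs of mice were independent beyond being separate mice, and their number limits the precision. The labels number mice of the same genotype close together and the 2 mice on an array far apart. Whether genotype went with litter or cohort was not tested. Named genes were every member, list genes that limma called and the 3 largest past 1.5-fold alike per list and experiment. The 5 genes most like the members over the 4 mice were named too. Cdh1, Ptprc, Arhgdib, Itgb7, Xcl1, Cr2, the 2 T cell receptor genes and, in the Rspo3 experiment, Ccl20 were named after their values were seen. A result that this rule would name is not reported here. Alternatives were the software's ratio, no background correction, an offset of 16, all spots in the fit, median centring, other filters on dim probes, the mean over probes, a 2-fold threshold, error-weighted means, fits on all 4 arrays with and without a dye term, leaving out each array and, for the Axin2 experiment, leaving out Cd3e and Cd6. The study's build for probe positions was mm9.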

Additional observations from a re-analysis of the deposited data

How the results depend on the processing

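No member was called in Rspo3 KO under any of the settings that kept both arrays, the fits on all 4 arrays included. With 1 pair left out and the spread taken from all 3 remaining arrays, where the lone pair is assumed to vary like the technical dye swap, the count ran from 1 without pair 1 to 6 without pair 2. These counts went in opposite directions. The member counted without pair 1 was Gzmb, which was higher in KO, at a log2 ratio of 0.37. Those counted without pair 2 were Cd2, Cd3d, Cd3g, Cd5, Cd6 and Itgae. All of those were lower in KO, from -0.31 for Cd2 to -1.39 for Cd5. The members' median in Rspo3 KO stayed below 0 in every setting. In Rspo3 KO the median was -0.92 with the software's ratio and with the table of values and -0.59 with error weights. On leaving out a pair the median ran from -0.56 to -0.10. The count of members past 1.5-fold in Rspo3 KO was 4 with the software's ratio and the table of values, 2 without background correction or with an offset of 16, and 0 with all spots in the background fit or at 2-fold. It ran from 0 to 3 on leaving out a pair. In Axin2+ that count was 4 with the software's ratio and the table of values, 3 without background correction or with an offset of 16, 2 with median centring and 0 with both channels required. It was 1 without either array. The median in Axin2+ was -0.61 with the software's ratio, the table of values and error weights, -0.33 without background correction, -0.43 with an offset of 16, -0.26 with median centring, -0.25 without a filter, -0.19 with both channels required, -0.24 with the mean over probes and -0.43 without Cd3e and Cd6, an alternative chosen after seeing the data, and ran from -0.32 to -0.27 on leaving out an array. Signs turned for Cd5 (0.0065) and Itgae (0.134) in Rspo3 KO with all spots in the fit. On leaving out a pair the ratio in Rspo3 KO ran from -1.39 to 0.16 for Cd5, from -0.39 to 0.32 for Itgae and from -0.043 to 0.37 for Gzmb, and on leaving out an array that of Cd8a in Axin2+ ran from -0.090 to 0.016. The cause was not tested. No paired analysis was possible because the Rspo3 fit is paired as it stands. Each ratio sets a KO mouse against the control mouse on the same array, so no further block can be added.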
